A study of Mus musculus with 5 samples.

Results

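The 75 genes described here encode proteins of the mitochondrial ribosome. They were taken from the deposited table by symbol, as every protein-coding row named Mrpl or Mrps followed by a number, and they are 75 of its 12446 genes. By name, 46 belong to the large subunit (Mrpl) and 29 to the small subunit (Mrps). A further 2 rows of this naming, Mrpl23-ps1 and Mrpl48-ps, are pseudogenes and were left out. The libraries came from cardiomyocytes isolated from the hearts of adult male C57BL/6 mice. OSKM-CMs (3 libraries, replicates 1, 2 and 3) came from mice given a mixture of AAV-cTnT vectors (AAV is adeno-associated virus). Each vector carried a reprogramming factor with a tag: Oct4-His6, Sox2-Flag, Klf4-HA or Myc-V5. Control-CMs (2 libraries, replicates 3 and 5) came from mice given AAV-cTnT-BFP, which encodes blue fluorescent protein. The cTnT promoter is that of cardiac troponin T and drives expression in cardiomyocytes, so any other cells in the preparations were not the intended target. Injection was at 8 weeks and the stated age is 12 to 14 weeks. The labels do not tie the libraries to separate mice, so p-values measure the spread between libraries only.

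The mitochondrial ribosome translates the messenger RNAs that mitochondrial DNA encodes, all of them for subunits of the respiratory chain and ATP synthase. Its ribosomal RNAs are made in the organelle, whereas its proteins are encoded in the nucleus, made in the cytosol and imported. Part of these proteins have a counterpart in the bacterial ribosome and the rest were added in the mitochondrial lineage. In heart muscle, which depends on oxidative metabolism, inherited defects of several of them cause cardiomyopathy in humans.

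Reads over the listed genes totalled 2691796 to 2780751 in OSKM-CMs and 3519628 to 3861805 in Control-CMs. Transcripts of mitochondrial DNA took 9.76% to 11.1% of them in OSKM-CMs and 21.2% to 24.7% in Control-CMs. Cardiomyocyte markers were read strongly in all 5 libraries, with a summed level of 12131 to 13284 scaled RPKM in OSKM-CMs and 22507 to 25138 in Control-CMs, and 7 of 10 were lower and 1 higher. RPKM are reads per kilobase of gene, scaled to the reads of the library, and were here rescaled so that the bulk of genes is level between libraries. Fibroblast markers summed to 93.6 to 209 scaled RPKM in OSKM-CMs and 38.8 to 75.3 in Control-CMs (5 of 9 higher). Endothelial markers summed to 103 to 218 in OSKM-CMs and 322 to 337 in Control-CMs (3 of 10 lower). Smooth muscle and pericyte markers summed to 84.1 to 121 in OSKM-CMs and 161 to 178 in Control-CMs (2 of 8 higher, 1 lower), and macrophage markers to 9.32 to 44.4 in OSKM-CMs and 14.6 to 56.9 in Control-CMs (0 of 6 called). Ptprc, a macrophage list member below the level tested, had 0 reads in OSKM-CMs replicate 2, and no other listed marker was at 0 in any library. Beside these marker counts, 14.3% of all tested genes were called lower and 15.9% higher, by the test given below. Mitochondrial ribosomal protein genes are used by all of the cell types named above. The part of the cell mixture in the results below was not tested, and in bulk RNA fewer cells of a type cannot be told apart from less RNA per cell.

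Mitochondrial ribosomal protein genes were shifted modestly and unevenly. All 75 passed the minimum for testing, a mean of 1 RPKM. Of them, 21 fell in OSKM-CMs, 2 rose and 52 did not pass (limma on log2 of scaled RPKM plus 1, Benjamini-Hochberg adjusted p below 0.05 over 10915 genes). The lower members are 28.0% of 75, where 14.3% of all tested genes were called lower, and the higher ones are 2.67%, where 15.9% of all tested genes were called higher. In either direction 30.2% of all tested genes were called, and 30.5% with limma voom on reads recovered from the values. The median log2 fold change was -0.15 for the members and 0.02 for all tested genes. A negative log2 fold change was found for 50 members and a positive one for 25. The extremes were -1.02 and 0.52, and only Mrpl55 reached a change of 1 on the log2 scale. In every library the members had at least 16 reads each, and the median member had 111 to 130 reads in OSKM-CMs and 132 to 141 in Control-CMs. Standard errors ran from 0.11 to 0.25 on the log2 scale, and the smallest change that passed was 0.43 in size.

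**Figure D1:**
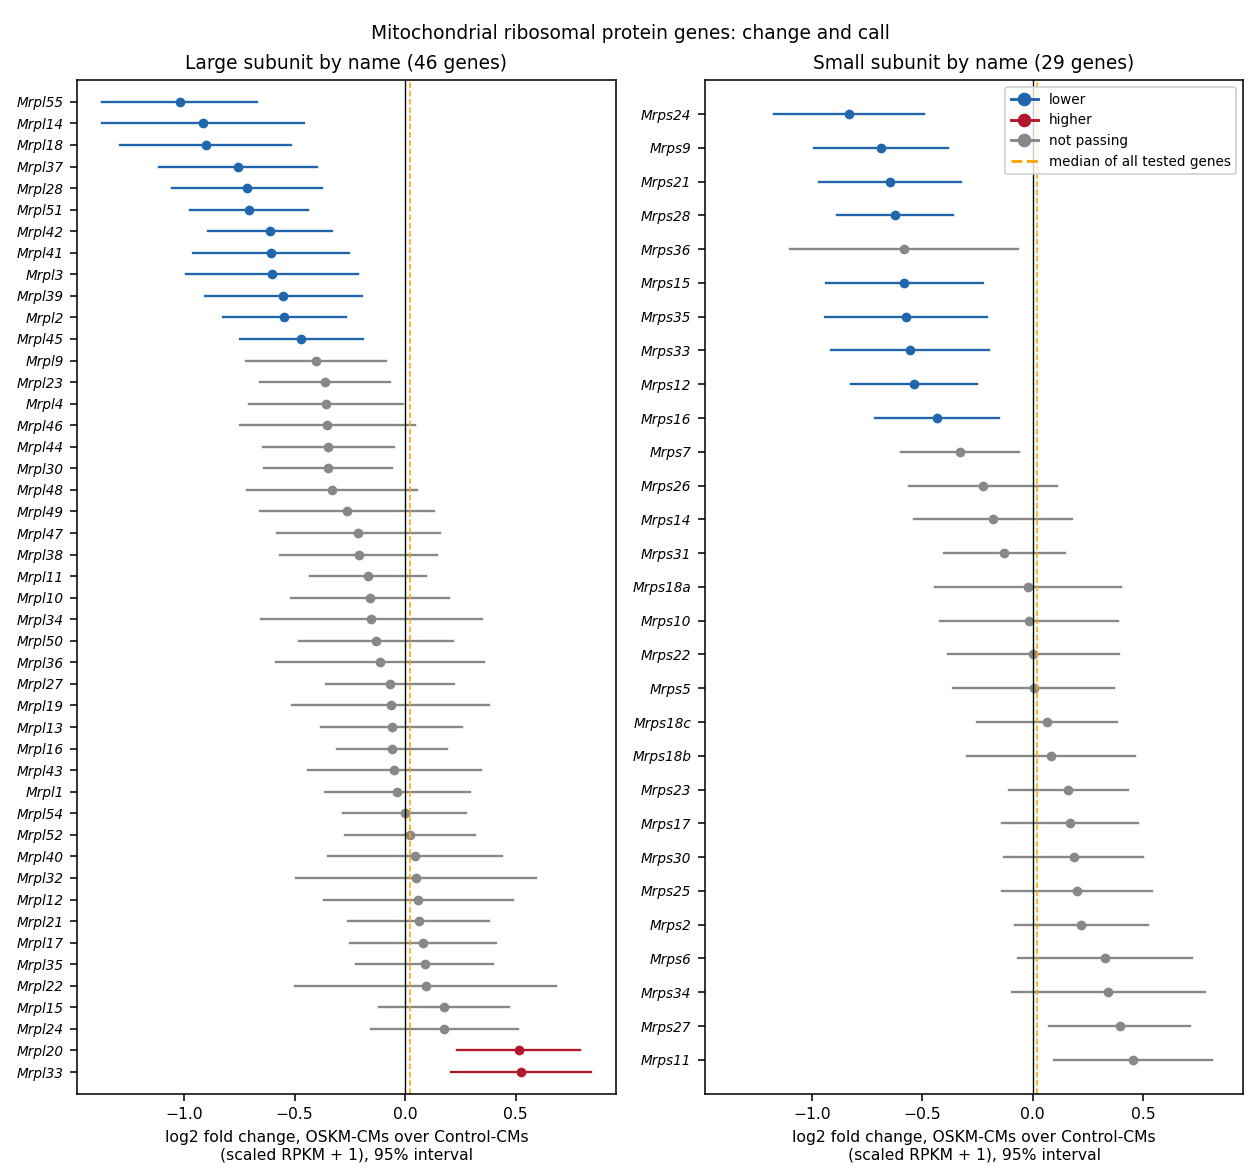
Log2 fold change of OSKM-CMs over Control-CMs (x axis, log2 of scaled RPKM plus 1) for each of the 46 large subunit genes and the 29 small subunit genes, with 95% intervals from limma. Blue points are lower, red points higher and grey points did not pass, and the dashed line is the median of all tested genes. Both panels run from strong falls to a tail above 0, and the 2 red points, Mrpl20 and Mrpl33, are in the large subunit.

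All 3 OSKM libraries lay below both controls for 33 members, or 44.0%, where 27.8% of all tested genes had this pattern. All 3 lay above both controls for 10 members, or 13.3%, where the share of all tested genes was 30.0%. The groups overlapped for the other 32. The 21 called falls were all among the 33. The calls depended on single libraries: the number of lower members was 9 without Control-CMs replicate 5, 13 without Control-CMs replicate 3 and 12 without OSKM-CMs replicate 1. It was 16 without OSKM-CMs replicate 3 and 22 without OSKM-CMs replicate 2. The share of all tested genes called with a library left out is not given here. These counts, and those of other lists below, therefore cannot tell a trait of the list from a change across all genes. The falls of Mrpl55, Mrpl18, Mrpl28, Mrpl51, Mrpl42, Mrps24, Mrps9 and Mrps28 passed whichever library was left out. In the authors' deposited table, 20 members were lower and 2 higher at an FDR below 0.05, against 15.4% lower and 16.4% higher of its 12446 genes. The member missing there was Mrps16, with an FDR of 0.0774 in the authors' deposited table.

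The direction of the shift rests on the scaling. Scaled to library totals alone, 20 members were higher and 2 lower, because this setting raised the median of all tested genes to 0.36. The background under it was 36.5% higher and 5.96% lower. Relative to that median the members were again below, with a median of 0.26. The 2 that were still lower were Mrpl55 at -0.61 and Mrps24 at -0.42. Scaled to the total of genes outside mitochondrial DNA, 11 members were lower and 7 higher, where 9.39% of all tested genes were lower, 23.9% higher and 33.3% called in either direction. Statements of rises and falls below are therefore relative to the bulk of genes.

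**Figure D2:**
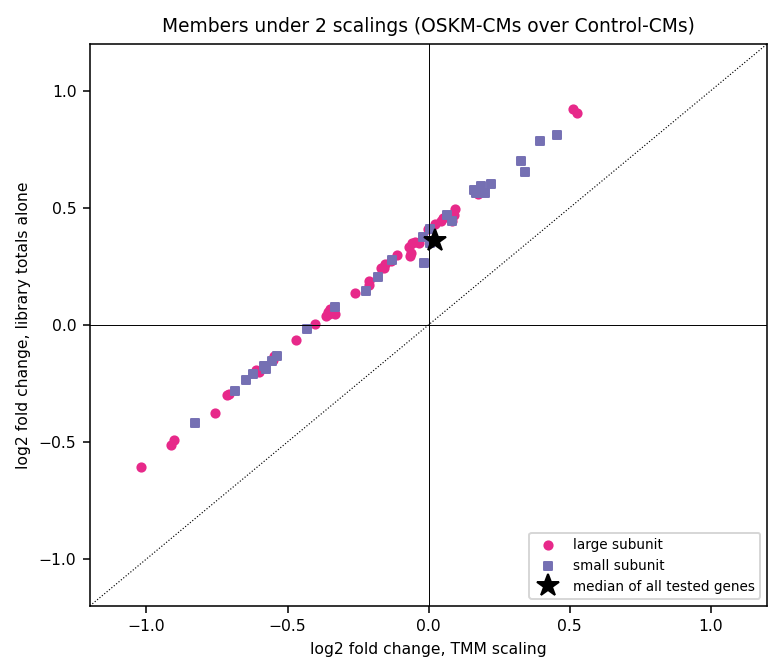
Log2 fold change of each member under TMM scaling (x axis) and under library totals alone (y axis), circles for the large and squares for the small subunit. The star marks the median of all tested genes, at 0.02 and 0.36. The members lie close to a line above the dotted diagonal of equal values, so the scaling moved them by nearly the same amount.

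Both subunits held genes that fell, and the genes of the subunits were not tested against each other. Of all tested genes, 14.3% were lower and 15.9% higher. In the large subunit 12 of 46 fell, 2 rose and 32 did not pass, with a median log2 fold change of -0.16 and a middle range of -0.45 to 0.02. In the small subunit 9 of 29 fell, 0 rose and 20 did not pass, with a median of -0.02 and a middle range of -0.55 to 0.17. Without Control-CMs replicate 5 the genes that fell were 6 in the large and 3 in the small subunit. Without Control-CMs replicate 3 they were 7 and 6, and without OSKM-CMs replicate 1 they were 8 and 4. Groups did not overlap downward for 21 large and 12 small subunit genes, where 27.8% of all tested genes had this pattern. They did not overlap upward for 3 large and 7 small subunit genes, where the share of all tested genes was 30.0%. The summed level of the large subunit was 1417, 1657 and 1484 scaled RPKM in OSKM-CMs replicates 1, 2 and 3, against 1909 and 1999 in Control-CMs replicates 3 and 5. For the small subunit the sums were 619, 667 and 638 in OSKM-CMs, against 753 and 804 in Control-CMs. Every OSKM library was below every control for both subunits. Together the members averaged 2161 ± 147 scaled RPKM in OSKM-CMs (SD, n = 3) and 2733 ± 100.2 in Control-CMs (SD, n = 2), 0.791-fold. Under library totals alone the fold was 1.06. OSKM-CMs replicate 2 had the highest sum of its group and also the lowest fibroblast, endothelial, macrophage and smooth muscle marker sums of the 3. The part of those cells in its level was not tested.

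The ratio of large to small subunit sums does not depend on library scaling. It was 2.29, 2.49 and 2.33 in OSKM-CMs, against 2.54 and 2.49 in Control-CMs, so the OSKM libraries reached up to the lower control. Mrpl42, the most abundant member, made up 18.1% of the large subunit sum in OSKM-CMs and 21.5% in Control-CMs on average. Without it the mean ratio was 1.94 ± 0.0794 in OSKM-CMs and 1.97 ± 0.0397 in Control-CMs, a difference within the SD of OSKM-CMs. The names do not match position in the particle for every member: structures of the mammalian mitoribosome place Mrps18a and Mrps30 in the large subunit, and Mrps36 is now assigned to the 2-oxoglutarate dehydrogenase complex. With these 3 genes placed accordingly, 12 of 48 large and 9 of 26 small subunit genes were lower, with medians of -0.16 and -0.07. Of all tested genes, 14.3% were lower.

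**Figure D3:**
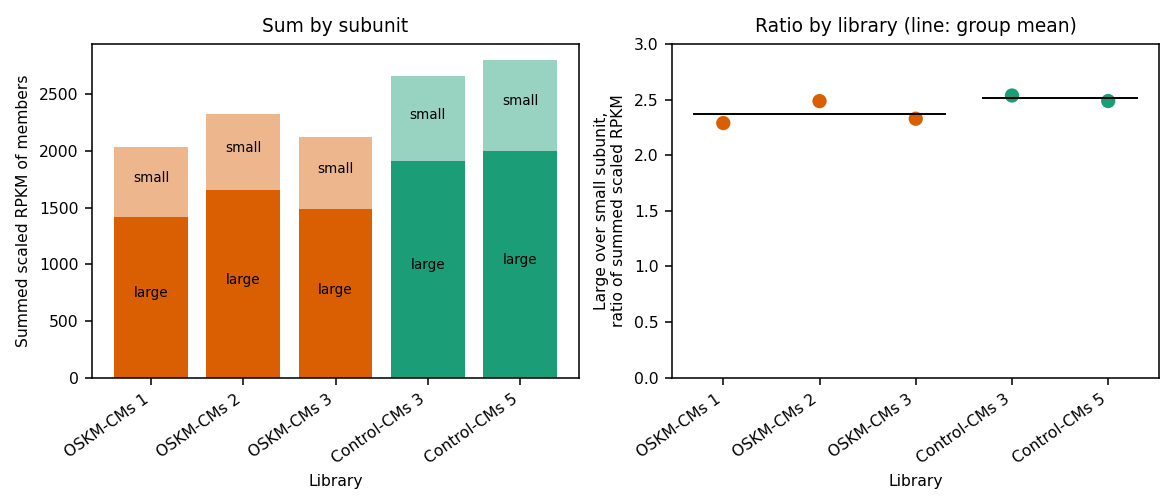
Left, summed scaled RPKM of the members in each library (orange OSKM-CMs, green Control-CMs), with the large subunit below and the small subunit stacked above. Right, the ratio of large to small subunit sums, with a line at each group mean. Sums are 2037 to 2324 in OSKM-CMs and 2662 to 2804 in Control-CMs, while the ratios of the groups meet at 2.49.

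Among large subunit genes the strongest fall was that of Mrpl55 (ENSMUSG00000036860.8). It had 37.5, 50.1 and 39.9 scaled RPKM in OSKM-CMs, against 81.4 and 92.0 in Control-CMs. The groups were far apart, with a ratio of 0.490 and a log2 difference of -1.02 (SE 0.15, limma adjusted p = 0.00258), and the call held in all 14 alternative settings, as did that of Mrps24. Mrpl14 (ENSMUSG00000023939.7), the counterpart of bacterial L14 at the face that meets the small subunit, had 13.8, 14.2 and 18.3 scaled RPKM in OSKM-CMs, against 24.5 and 36.1 in Control-CMs. Its log2 fold change was -0.91 (SE 0.20, limma adjusted p = 0.0118), and it did not pass without Control-CMs replicate 5. Mrpl18 (ENSMUSG00000057388.3), whose bacterial counterpart binds 5S ribosomal RNA, had 25.6, 36.3 and 30.9 in OSKM-CMs, against 63.2 and 53.5 in Control-CMs. It fell by 0.90 on the log2 scale (SE 0.17, limma adjusted p = 0.00608). Exons of Mrpl18 overlap Tcp1, and those of Mrpl14 overlap Tmem63b, on the other strand.

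Mrpl37 (ENSMUSG00000028622.5), a protein without a bacterial counterpart, was at 7.0, 8.85 and 6.96 scaled RPKM in OSKM-CMs, against 14.2 and 12.8 in Control-CMs (log2 fold change -0.76, limma adjusted p = 0.00914). It did not pass without Control-CMs replicate 3. Mrpl28 (ENSMUSG00000024181.8), the counterpart of bacterial L28 and an abundant member, had 56.3, 70.7 and 52.4 in OSKM-CMs, against 99.3 and 96.9 in Control-CMs (log2 fold change -0.72, limma adjusted p = 0.00949). Mrpl42 (ENSMUSG00000062981.4), absent from bacteria, had the highest level of all members in every library, at 259, 307 and 261 scaled RPKM in OSKM-CMs, against 404 and 437 in Control-CMs. It fell by 0.61 on the log2 scale (SE 0.12, limma adjusted p = 0.00800). Mrpl3 (ENSMUSG00000032563.9), near the peptidyl transferase centre and mutated in an inherited human cardiomyopathy, had 17.0, 23.3 and 16.4 in OSKM-CMs, against 28.4 and 29.4 in Control-CMs. The fall of 0.60 on the log2 scale passed narrowly (limma adjusted p = 0.0312) and was lost in 7 of 14 settings. The other large subunit genes that fell were Mrpl51, Mrpl41, Mrpl39, Mrpl2 and Mrpl45, with log2 fold changes of -0.71 to -0.47. Without Control-CMs replicate 5, Mrpl41, Mrpl39, Mrpl2 and Mrpl45 did not pass.

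**Figure D4:**
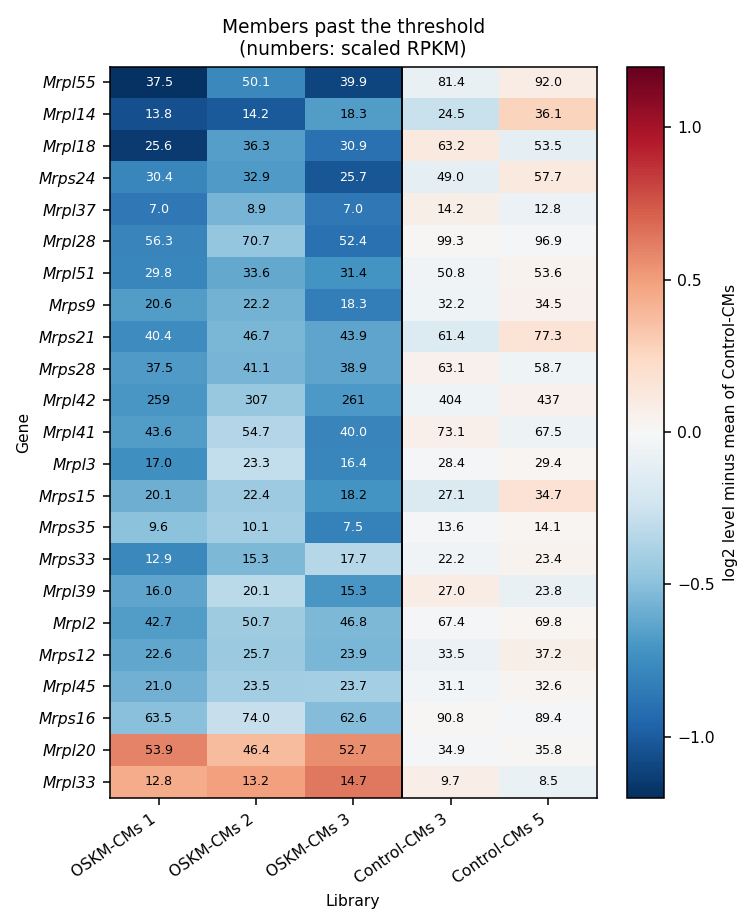
Scaled RPKM (numbers) of the 23 members past the threshold in each library, coloured by the log2 level minus the mean of Control-CMs. Blue fills the OSKM-CMs columns for the 21 genes that fell and red for Mrpl20 and Mrpl33, and among the fallen genes OSKM-CMs replicate 2 is often the palest of the 3.

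In the small subunit the strongest fall was that of Mrps24 (ENSMUSG00000020477.4), which corresponds to bacterial S3 at the entry of the mRNA channel. It had 30.4, 32.9 and 25.7 scaled RPKM in OSKM-CMs, against 49.0 and 57.7 in Control-CMs (log2 fold change -0.83, SE 0.15, limma adjusted p = 0.00506). One of its exons overlaps Urgcp on the same strand. Mrps9, counterpart of S9 in the subunit head, fell by 0.69 on the log2 scale. Mrps21, counterpart of S21 and among the most abundant of its subunit, had 40.4, 46.7 and 43.9 scaled RPKM in OSKM-CMs, against 61.4 and 77.3 in Control-CMs, and fell by 0.65. Mrps28 fell by 0.62 and Mrps15, counterpart of S15, by 0.58. Mrps12 (ENSMUSG00000045948.8), the counterpart of S12 at the decoding centre, had 22.6, 25.7 and 23.9 in OSKM-CMs, against 33.5 and 37.2 in Control-CMs (log2 fold change -0.54, SE 0.12, limma adjusted p = 0.0144). Mrps16 (ENSMUSG00000049960.3), whose mutation causes a human respiratory chain disorder, had 63.5, 74.0 and 62.6 in OSKM-CMs, against 90.8 and 89.4 in Control-CMs (log2 fold change -0.43, limma adjusted p = 0.0309), and lost the call in 7 of 14 settings. The other small subunit genes that fell were Mrps35 and Mrps33, both without a bacterial counterpart. Without Control-CMs replicate 5, Mrps21, Mrps15, Mrps12, Mrps35 and Mrps33 did not pass.

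Both members that rose are counterparts of bacterial proteins of the large subunit. Mrpl20 (ENSMUSG00000029066.5), whose bacterial counterpart binds ribosomal RNA early in assembly, had 53.9, 46.4 and 52.7 scaled RPKM in OSKM-CMs, against 34.9 and 35.8 in Control-CMs. All OSKM libraries were above both controls, by a factor of 1.44 on average, or 0.51 on the log2 scale (SE 0.12, limma adjusted p = 0.0156). Mrpl33 (ENSMUSG00000029142.8) had 12.8, 13.2 and 14.7 in OSKM-CMs, against 9.70 and 8.53 in Control-CMs, a factor of 1.49, or 0.52 on the log2 scale (SE 0.14, limma adjusted p = 0.0239). The gene length implied by its values was 7.46 kb, while the median member had 1.70 kb, and which parts of the gene were counted is not given in the sources used here. Mrpl20 lost the call in 4 and Mrpl33 in 3 of the 5 settings that leave out a library. All OSKM libraries were above both controls for 7 of 29 small subunit genes, where 30.0% of all tested genes had this pattern. Of these 7, Mrps11 and Mrps27 had the largest log2 fold changes, 0.45 and 0.39, which did not pass (limma adjusted p = 0.0593 and 0.0647).

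The proteins that build the L7/L12 stalk, which recruits translation factors, did not pass. Mrpl12 (ENSMUSG00000039640.7), the stalk protein itself, which in human cells also binds the mitochondrial RNA polymerase, had 23.4, 35.5 and 26.7 scaled RPKM in OSKM-CMs, against 25.1 and 28.9 in Control-CMs. The groups overlapped, and the log2 fold change was 0.06 with a 95% interval of -0.37 to 0.49. Mrpl10, which anchors the stalk, and Mrpl11 at its base had log2 fold changes of -0.16 and -0.17 that did not pass either. Of 5 genes of the peptidyl transferase region, Mrpl2 and Mrpl3 fell, and Mrpl4, Mrpl16 and Mrpl27 did not pass. Of 5 genes at the exit tunnel, Mrpl45, which tethers the ribosome to the inner membrane, fell by 0.47 on the log2 scale and the others did not pass. None of the 4 genes listed here for the central protuberance (Mrpl38, Mrpl40, Mrpl46 and Mrpl48) passed. The region lists are partial, and Mrpl18 and Mrpl55, which fell, were assigned to no region. Of 4 genes listed here for the small subunit head, Mrps9 fell, and Mrps7, Mrps10 and Mrps14 did not pass. The head list is also partial. Of the small subunit genes that fell, Mrps24 was listed with the mRNA path instead, and Mrps33 and Mrps35 were assigned to no region. Of 4 platform genes, Mrps21 fell, and Mrps6, Mrps11 and Mrps18c did not pass. Of 3 genes listed with decoding and the mRNA path, Mrps12 and Mrps24 fell, and Mrps5 did not pass. Of all tested genes 14.3% were lower, and each region list is too short to set against that share.

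Of other members tied to human heart or mitochondrial disease, Mrpl44 (ENSMUSG00000026248.8) had 29.3, 29.1 and 24.6 scaled RPKM in OSKM-CMs, against 34.6 and 36.1 in Control-CMs. The groups did not overlap, but the log2 fold change of -0.35 did not pass (limma adjusted p = 0.0755). Mrps22 (ENSMUSG00000032459.8) had 23.2, 22.6 and 30.3 in OSKM-CMs, against 22.7 and 27.7 in Control-CMs, with a 95% interval of -0.38 to 0.39. Mrps34 rested on the fewest reads, 19, 28 and 25 in OSKM-CMs and 19 and 16 in Control-CMs, and its log2 fold change of 0.34 did not pass. Mrps2, counterpart of S2, was at 0.22 on the log2 scale (limma adjusted p = 0.239) and Mrps7, counterpart of S7, at -0.33 (limma adjusted p = 0.0642). The S18 paralogues Mrps18a, Mrps18b and Mrps18c stayed between -0.02 and 0.08. Mrps30 was at 0.19 and Mrps36 at -0.58, where 19.2, 30.8 and 20.8 scaled RPKM in OSKM-CMs overlapped 30.7 and 40.2 in Control-CMs. The most abundant small subunit gene, Mrps23, had 80.0, 79.8 and 79.9 in OSKM-CMs, against 77.1 and 66.0 in Control-CMs (limma adjusted p = 0.326). Mrpl34, also abundant, ranged from 60.9 to 94.7 in OSKM-CMs and from 71.2 to 87.0 in Control-CMs. Of the 52 members that did not pass, 24 had a 95% interval that lay within 0.5 of 0 on the log2 scale.

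By the origin assigned here, which was not checked against sequences, calls were found on both sides. Of all tested genes, 14.3% were lower and 15.9% higher. With a bacterial counterpart, 12 of 45 fell and 2 rose (median log2 fold change -0.11). Without a counterpart, 9 of 27 fell and 0 rose (median -0.22). Mrpl55 was counted among these, and that assignment may be wrong.

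Of 3 motifs searched in the promoters of the members, the ETS core was the most frequent. Promoters were taken from RefSeq (GRCm38.p6, 250 bases before to 50 after the annotated start), which listed 66 of the 75 by symbol. The files name mm9, so these coordinates are not those of the deposited processing. Searched on both strands, the ETS core CCGGAAG was in 23 of 66 members (34.8%), against 21.2% of 7227 tested protein-coding genes with a promoter and 9.93% of all 27025. The NRF-1 core is named for a regulator of nuclear genes of mitochondria. This core was in 12 of 66 members (18.2%), against 12.6% of the tested genes and 5.19% of all. The E-box CACGTG, which MYC and related factors bind and which reads the same on both strands, was in 5 of 66 (7.58%), against 12.4% and 8.09%. By call, the E-box was in 2 of 19 members that fell, in 1 of 2 that rose (Mrpl20) and in 2 of 45 that did not pass. The NRF-1 core was in 5 of 19 that fell, 0 of 2 that rose and 7 of 45 that did not pass, and the ETS core in 7 of 19, 1 of 2 and 15 of 45. The promoters below show a fallen gene with an E-box, a fallen gene with 3 NRF-1 cores, a risen gene with an ETS core at its start, and a start region shared by a divergent pair. Capitals mark the 3 motifs.
Mrpl37 (chr4:107066817-107067116, minus strand): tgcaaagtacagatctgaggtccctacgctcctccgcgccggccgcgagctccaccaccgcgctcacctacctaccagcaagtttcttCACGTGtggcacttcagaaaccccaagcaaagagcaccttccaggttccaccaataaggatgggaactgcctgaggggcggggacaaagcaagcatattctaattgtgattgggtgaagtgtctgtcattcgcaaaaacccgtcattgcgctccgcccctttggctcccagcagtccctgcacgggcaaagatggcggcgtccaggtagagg
Mrpl45 (chr11:97315466-97315765, plus strand): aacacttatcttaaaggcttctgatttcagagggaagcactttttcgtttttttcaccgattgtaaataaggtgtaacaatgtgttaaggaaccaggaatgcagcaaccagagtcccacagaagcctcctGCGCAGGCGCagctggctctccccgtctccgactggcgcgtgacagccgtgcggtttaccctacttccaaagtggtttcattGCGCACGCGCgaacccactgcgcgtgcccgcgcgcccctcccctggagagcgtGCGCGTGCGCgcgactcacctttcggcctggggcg
Mrpl33 (chr5:31613701-31614000, plus strand): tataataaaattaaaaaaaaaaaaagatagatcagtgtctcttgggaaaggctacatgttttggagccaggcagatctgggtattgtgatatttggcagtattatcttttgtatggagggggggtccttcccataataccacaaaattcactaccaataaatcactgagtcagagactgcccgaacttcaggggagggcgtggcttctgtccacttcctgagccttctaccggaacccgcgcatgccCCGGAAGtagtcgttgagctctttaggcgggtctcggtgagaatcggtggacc
Mrps11 (chr7:78782881-78783180, plus strand): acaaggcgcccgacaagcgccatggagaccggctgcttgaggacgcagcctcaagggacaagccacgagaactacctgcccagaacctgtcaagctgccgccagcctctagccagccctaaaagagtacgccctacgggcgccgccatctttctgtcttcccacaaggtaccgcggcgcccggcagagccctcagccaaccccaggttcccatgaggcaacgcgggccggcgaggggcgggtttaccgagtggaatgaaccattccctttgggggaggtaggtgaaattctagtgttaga

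Mrps11 and Mrpl46 are read in opposite directions from starts 42 bases apart in RefSeq, and their promoter windows share 141 bases. This pair was chosen after its values were seen. Mrps11 (ENSMUSG00000030611.4) had 6.90, 7.40 and 7.53 scaled RPKM in OSKM-CMs, against 4.45 and 5.69 in Control-CMs. Mrpl46 (ENSMUSG00000030612.5) had 14.1, 15.3 and 20.5 in OSKM-CMs, against 21.1 and 21.3 in Control-CMs. The groups did not overlap for either gene and lay in opposite order, but neither passed (limma adjusted p = 0.0593 and 0.157). The exons of the pair overlap by 173 bases in GENCODE vM21, and the strand setting of the counting is not given in the sources used here, so reads of that stretch cannot be assigned to one of them.

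Many members sit head to head with another gene. In GENCODE vM21 (GRCm38), 17 of 74 matched members (23.0%) had a protein-coding gene starting within 1000 bases upstream in the opposite direction, against 1076 of 9921 tested protein-coding genes (10.8%). Pairs with overlapping starts were left out of both counts, so Mrps11 and Mrpl46 are not among the 17. Of the 17 partners 12 were tested and 1 was called, where 30.2% of all tested genes were called in either direction. The called partner was Apba3, with a log2 fold change of -0.75 beside -0.00 for Mrpl54. The 5 members of such pairs that fell were Mrpl2, Mrpl37, Mrpl41, Mrpl51 and Mrps12, and 0 of their 5 partners passed, too few to set against that share. Mrps12 is paired with Sars2, the mitochondrial seryl-tRNA synthetase, 172 bases away, which was at -0.11 on the log2 scale (limma adjusted p = 0.693). Exons of 30 members overlapped another gene, on the opposite strand for 26, so their reads may include those of the neighbour.

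Genes of mitochondrial translation outside the members were called in both directions, and their counts stand against the 14.3% of all tested genes that were lower and the 15.9% that were higher. Of 7 mitoribosomal proteins under other names, 2 fell and 1 rose. Ptcd3, a small subunit protein that binds RNA, and Chchd1, also of the small subunit, fell by 0.38 and 0.42 on the log2 scale (limma adjusted p = 0.0317 and 0.0429). Mrp63, of the large subunit, rose by 0.47 (limma adjusted p = 0.041). Dap3, a GTP-binding protein of the small subunit, Ict1, a peptidyl-tRNA hydrolase built into the large subunit, and Aurkaip1 and Gadd45gip1 had log2 fold changes of -0.38 to -0.25 that did not pass. All 3 calls were lost with limma's trend and robust step left out, and without OSKM-CMs replicate 3, Control-CMs replicate 3 or Control-CMs replicate 5. Ptcd3 and Chchd1 were also lost without OSKM-CMs replicate 1 and under both scalings to totals, and Mrp63 without OSKM-CMs replicate 2 and with limma voom.

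Of 15 mitochondrial translation and RNA factors, 1 fell and 0 rose. The groups did not overlap downward for 7 of the 15, where 27.8% of all tested genes had this pattern. Without OSKM-CMs replicate 2 the lower genes were 6, and without Control-CMs replicate 3 they were 0. Lrpprc, which stabilises mitochondrial messenger RNAs, fell by 0.61 on the log2 scale (limma adjusted p = 0.00853), a call lost without Control-CMs replicate 3 and under library totals. The elongation factor Tufm averaged 75.7 ± 14.5 scaled RPKM in OSKM-CMs and 101 ± 4.30 in Control-CMs, with a log2 fold change of -0.43 that did not pass (limma adjusted p = 0.0818). The elongation factor Gfm1 was at -0.39, the initiation factor Mtif2 at -0.40, the recycling factor Mrrf at -0.39 and the inner membrane protein Letm1 at -0.43. The translational activator Taco1 was at -0.66, with a wide standard error of 0.34. The membrane insertase Oxa1l and the factors Tsfm, Guf1, Gfm2, Mtif3, Mtrf1, Mtrf1l and Mtfmt had log2 fold changes between -0.24 and 0.24, and none passed.

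Of 22 genes listed with the mitochondrial aminoacyl-tRNA synthetases, 4 fell and 3 rose. Those that fell include Qrsl1, which encodes an amidotransferase subunit and not a synthetase. Those that rose include Gars and Kars, which also encode the cytosolic enzymes. Cars2, for cysteine, fell by 0.82 on the log2 scale and Tars2, for threonine, rose by 0.87. Tars2 passed in every alternative setting, whereas Cars2 was lost without OSKM-CMs replicate 1, OSKM-CMs replicate 3 or Control-CMs replicate 3 and under both scalings to totals. The genes of this list that fell were 2 without OSKM-CMs replicate 1 and 2 without OSKM-CMs replicate 3. Of 37 mitoribosome assembly factors, 5 fell and 2 rose, from Gtpbp5, a GTPase of large subunit maturation, at -1.19 to Elac2, which processes mitochondrial tRNA ends, at 0.72. The number of assembly factors that fell was 10 without OSKM-CMs replicate 2, 2 without OSKM-CMs replicate 1 or 3, 1 without Control-CMs replicate 3 and 3 without Control-CMs replicate 5. Elac2 was lost without OSKM-CMs replicate 1, OSKM-CMs replicate 3 or Control-CMs replicate 5. Of 19 tested genes of mitochondrial transcription, replication and their nuclear regulators, 2 fell and 0 rose. These were Polg, the mitochondrial DNA polymerase, at -0.68 and the nuclear receptor Esrra at -0.54. Both calls were lost under both scalings to totals, and without any single library other than OSKM-CMs replicate 2.

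By median, the members lay between the nuclear subunits of oxidative phosphorylation and the cytosolic ribosomal proteins. All 13 listed transcripts of mitochondrial DNA, the templates of the mitoribosome, fell, with a median log2 fold change of -1.49. The largest fall was that of mt-Nd1, at -1.91, and the smallest that of mt-Nd4l, at -0.76. Their summed level was 63191 to 74057 scaled RPKM in OSKM-CMs and 178201 to 231530 in Control-CMs. The ribosomal RNA genes mt-Rnr1 and mt-Rnr2 were not analysed here. Of 78 nuclear subunits of oxidative phosphorylation, 70 fell and 2 rose, with a median of -0.75. They ran from Cox6a2, the muscle form of a cytochrome c oxidase subunit, at -1.59 to Cox6a1, the form of other tissues, at 1.29. Of 79 cytosolic ribosomal proteins, 58 rose and 0 fell, with a median of 0.52, and Rpl3 of the large subunit rose most, by 2.51. Without Control-CMs replicate 3, 35 of them were higher. Beside these, the members had 21 lower and 2 higher of 75 and a median of -0.15. Scaled to library totals, 12 transcripts of mitochondrial DNA and 37 oxidative phosphorylation subunits were lower, and 75 cytosolic ribosomal proteins were higher.

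**Figure D5:**
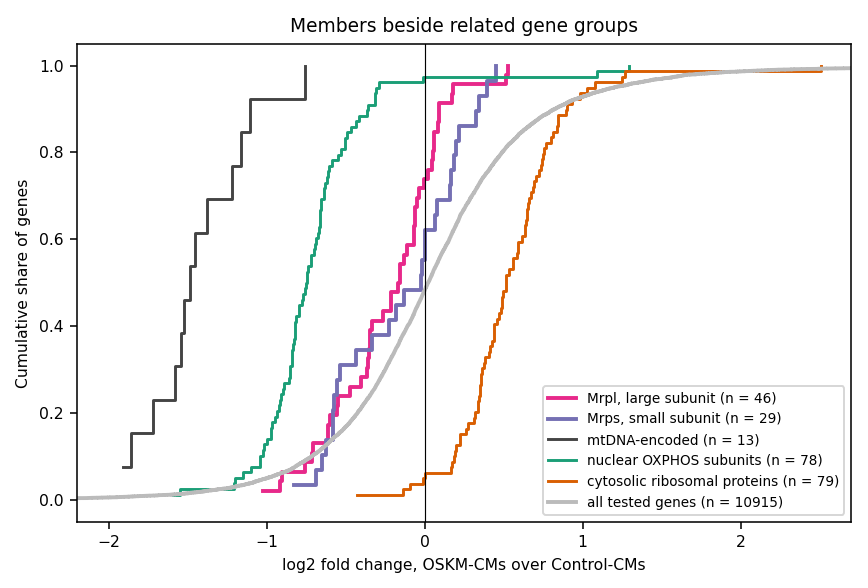
Cumulative share of genes (y axis) by log2 fold change of OSKM-CMs over Control-CMs (x axis) for the members of each subunit, transcripts of mitochondrial DNA, nuclear oxidative phosphorylation (OXPHOS) subunits, cytosolic ribosomal proteins and all tested genes. Over most of their range both subunit curves lie between the curve of OXPHOS subunits (median -0.75) and that of cytosolic ribosomal proteins (median 0.52), and they end at 0.52 and 0.45, short of the upper tail of all tested genes.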

How the data were processed

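RNA of isolated cardiomyocytes was sequenced in 3 OSKM-CMs and 2 Control-CMs libraries. Per the submitters' processing notes, the tools were STAR 2.5.3, HTSeq, Trimmomatic, FastQC and CASAVA 1.8.2, and the build was mm9. The strand setting and annotation are not given in the sources used here. The authors deposited RPKM per gene with their own log2 fold changes, p-values and a likelihood-ratio score. The unit RPKM was inferred from the values. Whole reads were recovered for 12446 genes (100% of them, within 0.0001 reads). For 440 genes, 5 members included, the values fix reads only up to a common factor, which was set by the average abundance the authors deposited. A count of 0 allows up to 3 reads, which covers counting error only.

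Values were scaled by TMM factors computed from the recovered reads with a reimplementation of the method. Genes with a mean of at least 1 RPKM were tested as log2(scaled RPKM + 1), so fold changes of low genes are understated, with limma 3.58.1 (R 4.3.3; trend, robust, Benjamini-Hochberg). The fit was tested on simulated data. Members were named if among the 6 largest rises or falls past the threshold, the 3 highest levels of a subunit, or landmark proteins; of other lists, the largest rise and fall past the threshold, and every member of the 2 lists of mitoribosomal proteins and translation factors. Others were added after their values were seen. Members and lists were chosen with earlier results of these data known. Alternatives were other pseudocounts, filters, scalings and models, and each library left out.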

Additional observations from a re-analysis of the deposited data

How the results depend on the processing

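No paired analysis was possible because replicate number 3 alone occurs in both groups. With library totals alone, 2 members were lower and 20 higher (large 1 and 10, small 1 and 10), with medians of 0.26, 0.24 (large) and 0.28 (small) and folds of the sums of 1.06, 1.04 and 1.10; Mrpl16 and Mrpl54 were then higher at 0.35 and 0.41. In the other lists 0 other mitoribosomal proteins, 0 translation factors, 0 synthetases (8 higher), 1 assembly factor (5 higher), 0 transcription genes (4 higher) and 37 OXPHOS subunits were lower. With genes of mitochondrial DNA left out of the scaling, 11 members were lower and 7 higher (large 7 lower, small 4 lower and 5 higher), with medians of 0.047, 0.034 and 0.12 and folds of 0.911, 0.895 and 0.949. The other lists then had 0 mitoribosomal proteins, 2 synthetases, 2 assembly factors and 0 transcription genes lower (1 higher). With limma voom, 0 other mitoribosomal proteins were higher, 5 translation factors, 4 transcription genes and 1 cytosolic ribosomal protein lower. With a mean of at least 5 RPKM the small subunit median was -0.15 and 4 translation factors were lower. Without trend and robust steps, 0 other mitoribosomal proteins were lower and 0 higher, and 1 transcription gene was lower. The ratio of large to small subunit was 2.79 in OSKM-CMs and 2.89 in Control-CMs by position, and 1.94 and 1.97 without Mrpl42, a setting chosen after seeing the data. The cause of these changes was not tested.

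Leaving out each library gave 9 to 22 lower and 0 to 2 higher members, 6 to 13 lower and 0 to 2 higher large subunit genes (median -0.28 to -0.094) and 3 to 9 lower small subunit genes (median -0.14 to -0.014). It gave 0 to 2 lower and 0 to 1 higher other mitoribosomal proteins, 0 to 6 lower translation factors, 2 to 4 lower synthetases, 1 to 10 lower and 1 to 2 higher assembly factors, 0 to 2 lower transcription genes, and 35 to 51 higher and 0 to 1 lower cytosolic ribosomal proteins. Where 1 control is left, it is assumed to vary like the other group. Of the 52 members that did not pass, 30 passed in none of the 14 settings. Depth limits the members with the fewest reads, such as Mrps34 with 16 to 28 reads in a library.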
